A study of Mus musculus with 4 samples.

Results

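The Greb1 locus was taken as every DNase I hypersensitive region that overlapped a window of 750 kb on chromosome 12, between 16.5 and 17.25 Mb in mm9, set to hold Greb1 and its flank. Of the 202687 regions in 4 deposited lists, 145 lay in the window, and joining overlapping regions of different lists gave 61 sites out of 103288 in the whole series. DNase-seq maps open chromatin by where the nuclease DNase I cuts. It was applied to 7438 cells, a mouse mammary line whose glucocorticoid receptor (GR, tagged with GFP) and estrogen receptor (ER, tagged with Cherry) are expressed under tetracycline control. All cells, untreated ones included, were without tetracycline for 24 h and so could make both tagged receptors. Cells received 100 nM dexamethasone (Dex, a synthetic GR ligand) plus 100 nM estradiol (E2, the ER ligand), E2 alone at 100 nM or Dex alone at 100 nM, each for 30 min, or were left untreated. The comparison addresses how hypersensitivity changes when both hormones are given together. Each condition had 1 library of 1 cell line, and no difference between conditions could be set against a spread between replicates.

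GREB1 is an early ER target first described in human breast cancer cells, where it also acts as a cofactor of ER. ER and GR are nuclear receptors that bind DNA once their ligand is present and recruit factors that open the chromatin around the bound site. ER recognises a pair of inverted GGTCA half-sites, and GR an inverted pair of AGAACA half-sites in the ideal case. The locus was chosen by measured values, the MaxD and listing of its sites with E2, known from earlier results of these data, so densities and ratios at its E2 sites are a description, without a test.

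Letters of the hypersensitive sites are not shown, since no mm9 sequence was used here. The promoters of the gene that gives the window its name show what receptor half-sites stand next to the annotated starts. RefSeq gives 2 starts for Greb1, and for each the 250 bases before the start are printed 5′ to 3′ along the gene, with GGTCA and its reverse complement TGACC in capitals. The second start lies further along the gene than the first. Both are taken from the annotation alone, and their use as promoters in these cells was not tested.
Greb1 promoter 1, GRCm38.p6 chr12:16800887-16801136, minus strand: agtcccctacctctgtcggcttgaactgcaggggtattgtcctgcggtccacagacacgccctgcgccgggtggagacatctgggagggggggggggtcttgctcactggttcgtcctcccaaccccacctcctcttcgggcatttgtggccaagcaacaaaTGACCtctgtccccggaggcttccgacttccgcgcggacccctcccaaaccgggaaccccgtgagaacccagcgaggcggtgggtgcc
Greb1 promoter 2, GRCm38.p6 chr12:16757240-16757489, minus strand: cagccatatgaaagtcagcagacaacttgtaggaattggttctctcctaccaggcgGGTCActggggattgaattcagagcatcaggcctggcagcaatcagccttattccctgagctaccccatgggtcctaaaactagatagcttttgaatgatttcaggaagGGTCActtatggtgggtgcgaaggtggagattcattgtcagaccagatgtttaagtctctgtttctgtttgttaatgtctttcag
The first promoter held 1 half-site, which began 88 bases before the start, and the second held 2, at 194 and 85 bases. Half-sites are common: 35.2% of 32851 RefSeq promoters of this length held one on either strand. Neither Greb1 promoter held the full ER element, GGTCA and TGACC with 3 bases of any kind between them, found in 0.0639% of promoters. Nor did either hold the GR element, GNACA and TGTNC at the same spacing with N any base, found in 0.387%. Both elements were searched on both strands. These positions are in another genome build than the hypersensitive regions, and the regions were therefore not placed against the starts, exons or introns of Greb1. In GRCm38.p6 the protein-coding genes Lpin1 and Ntsr2 lie next to Greb1 on one side and E2f6 and Rock2 on the other. Which of them the mm9 window takes in was not determined here.

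After Dex+E2 the list held 39 regions of the window, with 23 after E2, 39 after Dex and 44 in untreated cells. They covered 30.1, 17.5, 30.6 and 35.6 kb in the same order, or 4.01%, 2.33%, 4.09% and 4.74% of the window. The E2 list is the shortest of the series as well, with 35496 regions in all, against 50061 after Dex+E2, 51251 after Dex and 65879 in untreated cells. Each region has a pair of densities: MaxD, the highest tag density in it, and AveD, the average over it, both as the authors deposited them. The median region of the window had a MaxD of 17.2 after Dex+E2, 16.2 after E2, 13.5 after Dex and 15.0 in untreated cells. In every list this lay above the median of the whole list, which was 8.17, 7.40, 7.84 and 8.93. All MaxD values were whole multiples of 1 step per library, read here as 1 tag, so that window summits held between 26 and 900 tags. Intervals in brackets are exact 95% Poisson intervals on these tags or exact binomial intervals on their ratio, and they cover counting error only.

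Sites open in all conditions were generally denser in the untreated library as deposited, throughout the genome. The median MaxD over the 20687 sites of all 4 lists was 15.4 after Dex+E2, 10.2 after E2, 14.7 after Dex and 30.1 in untreated cells. Ratios are therefore given relative to these medians, and again as deposited where that moves them by more than 1.5 times. Where a list lacks a site, the site did not reach the threshold set by the authors in that library, and its chromatin need not have been closed. The faintest listed regions of the window had a MaxD of 7.0 after E2, 8.08 after Dex and 6.63 in untreated cells, closer together than the medians. A faint site with equal deposited MaxD therefore comes out higher in a hormone library by medians. By medians 11.8% of 31784 sites were at least 2-fold higher after Dex than in untreated cells and 0.406% lower.

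**Figure D1:**
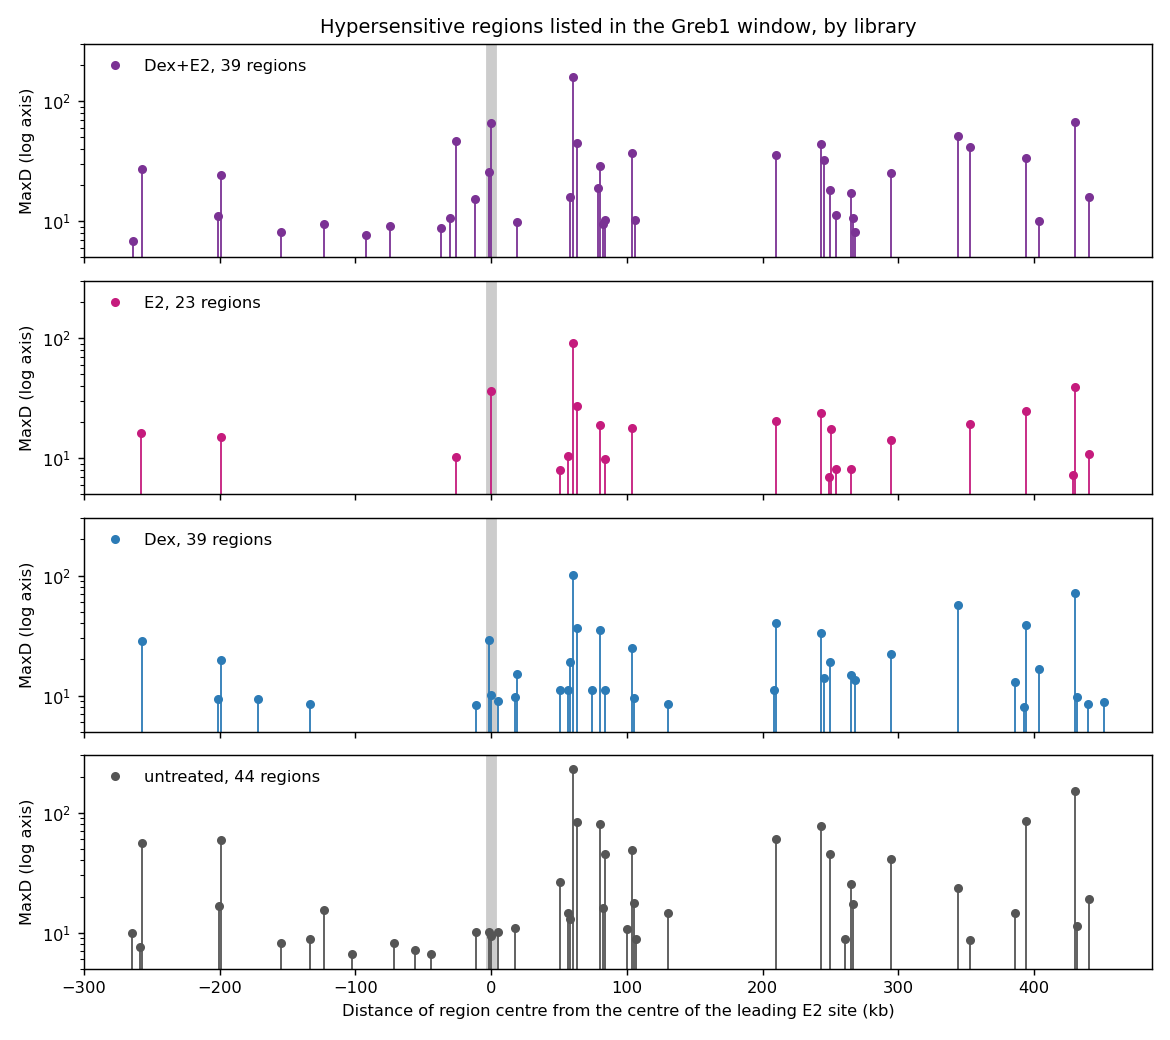
MaxD of every region listed in the Greb1 window (log axis) against the distance of its centre from the leading E2 site in kb, in 1 panel per library. The grey band marks the leading site, at 66.2 after Dex+E2 and 36.2 after E2, against 10.04 after Dex and 9.44 in untreated cells; the tallest point in each panel, near 60.3 kb, is the site with 158 after Dex+E2 and 230 in untreated cells.

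The clearest E2 site of the window was chr12:16797065-16797819. Its MaxD was 66.2 (58.9 to 74.3) after Dex+E2, 36.2 (31.1 to 41.9) after E2, 10.04 (7.20 to 13.6) after Dex and 9.44 (6.64 to 13.0) in untreated cells. Both libraries with E2 were high, and the counting intervals of the Dex and untreated libraries overlapped. AveD followed, with 22.3 after Dex+E2, 13.1 after E2, 2.56 after Dex and 2.67 in untreated cells. The listed region was also wider with E2: 752 bp after Dex+E2 and 719 bp after E2, against 486 bp after Dex and 390 bp in untreated cells. At its summit 292 tags were counted after Dex+E2, 181 after E2, 41 after Dex and 37 in untreated cells.

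Relative to the library medians the leading site was 11.3-fold higher after E2 than in untreated cells, a log2 ratio of 3.50 (2.98 to 4.05). As deposited the ratio was 3.84-fold. After Dex+E2 it was 6.28-fold higher than after Dex, a log2 ratio of 2.65 (2.18 to 3.16). These comparisons share no library. It was the 1 site among the 16 window sites of all 4 lists that was at least 2-fold higher in both, a call that 0.996% of all 20687 such sites met by medians and 0.0918% as deposited. The leading site was picked because, among the 16, the smaller of its E2 log2 ratios was the greatest. Ranked by this same value, it stood at position 2 of the 20687. The rank therefore describes the choice of site and locus and is no separate support.

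How Dex changed this site depended on the scaling. Dex+E2 over E2 gave a log2 ratio of 0.27 (0.003 to 0.55) relative to the medians and 0.87 as deposited. Dex over untreated gave 1.12 (0.45 to 1.81) relative to the medians, but 0.09 as deposited, where 41 and 37 tags stood behind the values. The log2 ratio for E2 was smaller with Dex present than without it by medians, a difference of −0.85, and greater as deposited, by 0.78. Over all sites of 4 lists the median of the same difference was −0.02 by medians and 1.61 as deposited. Division by the medians shifts this difference by the same amount at every site, so the leading site lay below the median site by an amount that scaling leaves as it is. No interval was computed for this amount, which rests on the same 41 and 37 tags. The counting intervals of both E2 log2 ratios overlapped, and each condition had 1 library.

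At the leading site AveD was a large share of MaxD in both E2 libraries. This share also depends on how wide the listed region is, and the shape of the signal was not measured. AveD was 33.7% of MaxD after Dex+E2 and 36.2% after E2, against 25.5% after Dex and 28.3% in untreated cells. Among the other 15 window sites of all 4 lists this share ran between 15.8% and 30.4% after Dex+E2 and between 17.9% and 30.4% after E2. The leading site stood above all 15 in both E2 libraries. Over all 20687 sites of 4 lists the median share was 24.7% after Dex+E2, 26.3% after E2, 22.8% after Dex and 22.7% in untreated cells, and the medians of the 15 window sites were lower, at 22.5%, 24.2%, 19.3% and 19.6%. In the Dex library it was inside their range, which reached 27.1%, and in untreated cells it was just above their highest value of 28.0%.

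Further E2 sites were missing from at least 1 list. The site chr12:16770996-16772312, 25.8 kb from the leading one, had a MaxD of 47.0 (40.8 to 53.8) after Dex+E2 and 10.2 (7.59 to 13.4) after E2, and was listed neither after Dex nor in untreated cells. Its AveD was 9.31 after Dex+E2 and 2.47 after E2, over 1316 bp and 568 bp. Dex+E2 exceeded E2 here by a log2 ratio of 1.61 (1.16 to 2.08), or 3.04-fold, and by 4.60-fold as deposited. It was the 1 site of 19 window sites in both lists at least 2-fold higher after Dex+E2 than after E2 by medians, a call met by 1.66% of 24166 sites. As deposited 4 of the 19 met it, against 12.5% of all: this site, chr12:17149486-17150376 (2.15-fold), chr12:17062406-17063219 (2.10-fold) and chr12:16900413-16901695 (2.08-fold).

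On the other side, 352 kb away, chr12:17149486-17150376 had a MaxD of 41.7 after Dex+E2, 19.4 after E2 and 8.67 in untreated cells, and was not in the Dex list. It was the 1 window site missing from the Dex list alone, a pattern of 1.69% of all sites. AveD was 8.93, 4.26 and 2.05, and the width 890, 744 and 378 bp, in the same order. E2 over untreated gave a log2 ratio of 2.72 (2.15 to 3.33), 6.60-fold by medians and 2.24-fold as deposited. Dex+E2 over E2 gave 0.51 (0.15 to 0.88), or 1.11 as deposited.

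A weak site, chr12:17051043-17051625, was listed at a MaxD of 11.3 after Dex+E2 and 8.20 after E2 and in no list without E2. With chr12:16770996-16772312 it made 2 of the 61 window sites (3.28%) found in the Dex+E2 and E2 lists and in neither other list, against 1.32% of all 103288 sites. Among the sites of all 4 lists, chr12:17237295-17238422 came next after the leading one. It had a MaxD of 15.9 after Dex+E2, 10.8 after E2, 8.57 after Dex and 19.1 in untreated cells, so that untreated cells were highest as deposited. Its log2 ratios were 0.74 (0.20 to 1.26) for E2 over untreated, which became −0.82 as deposited, and 0.82 (0.21 to 1.45) for Dex+E2 over Dex.

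**Figure D2:**
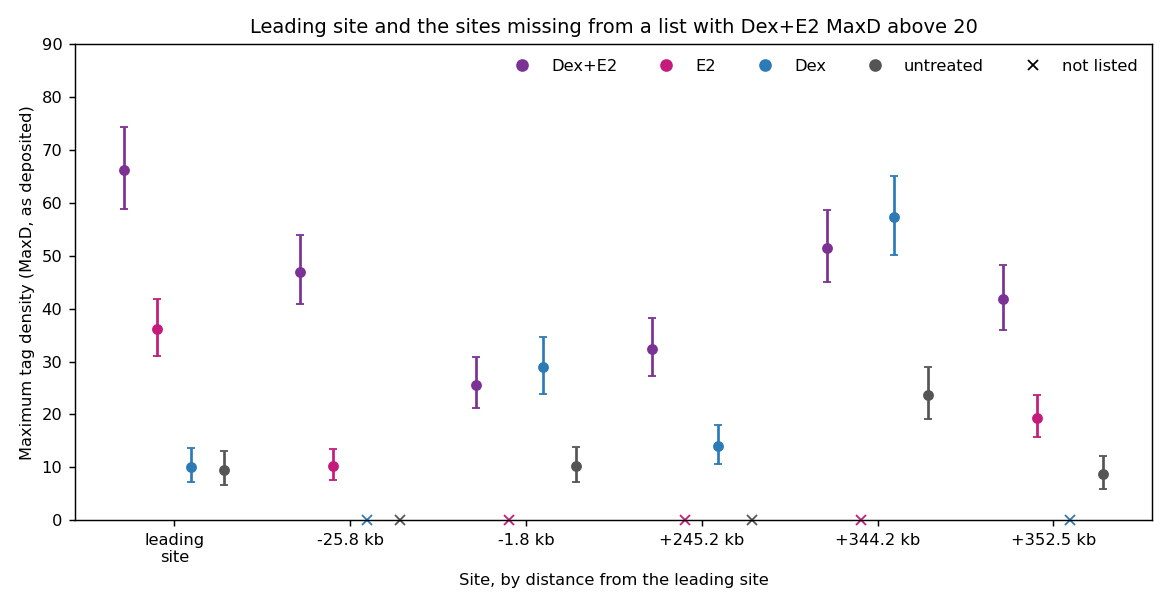
MaxD as deposited in each library at the leading site and at the 5 sites missing from at least 1 list whose MaxD after Dex+E2 was above 20, named by distance from the leading site; bars are exact 95% Poisson intervals on the summit tags and crosses mark libraries that do not list the site. The site at −25.8 kb was listed in both E2 libraries alone, and the site at 352.5 kb in both and in untreated cells. Sites at −1.8 and 344.2 kb were higher in both Dex libraries than in untreated cells and were not listed after E2.

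Other sites of the window were higher with Dex. Next to the leading E2 site, with a gap of 661 bp, lay chr12:16794819-16796404. Its MaxD was 25.6 (21.1 to 30.8) after Dex+E2, 28.9 (23.9 to 34.6) after Dex and 10.2 (7.29 to 13.9) in untreated cells, and it was not listed after E2. The 2 Dex libraries were alike within counting error and both were above untreated cells. AveD was 6.11 after Dex+E2, 6.55 after Dex and 3.02 in untreated cells, with widths of 722, 1585 and 527 bp. Dex over untreated gave a log2 ratio of 2.54 (2.01 to 3.09), or 5.80-fold, and 2.83-fold as deposited.

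The densest Dex site, chr12:17141017-17142251, had a MaxD of 51.5 (45.0 to 58.7) after Dex+E2, 57.3 (50.2 to 65.1) after Dex and 23.7 (19.1 to 29.1) in untreated cells, and was not listed after E2. AveD was 10.3 after Dex+E2, 11.0 after Dex and 5.13 in untreated cells, over 1011, 1232 and 805 bp. It was 4.95-fold higher after Dex than in untreated cells by medians and 2.42-fold as deposited. A gap of 7.24 kb separated it from the E2 site chr12:17149486-17150376; the first was missing from the E2 list alone and the second from the Dex list alone.

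Listing with Dex and a higher density with both hormones was seen at chr12:17042227-17043066, which was listed at 32.4 (27.3 to 38.2) after Dex+E2 and 14.0 (10.6 to 18.1) after Dex and in neither other list. Here AveD was 6.81 after Dex+E2 and 2.95 after Dex. Dex+E2 exceeded Dex by a log2 ratio of 1.15 (0.69 to 1.62), and this site and the leading one were the 2 of 25 window sites at least 2-fold higher in that comparison, against 1.58% of 29066 sites. The other 3 sites of the Dex+E2 and Dex lists alone went the other way. Their MaxD was 9.76 after Dex+E2 and 15.2 after Dex at chr12:16816040-16816867, 8.17 and 13.5 at chr12:17065280-17065857, and 9.98 and 16.7 at chr12:17200852-17201671. Together these 4 sites were 6.56% of the window's sites, and the pattern held 1.92% of all sites.

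Dex over untreated could be computed at 29 window sites, and 4 of them were at least 2-fold higher by medians, against 11.8% of 31784 sites. Those were both Dex sites above, the leading E2 site and chr12:16854739-16855760, with a MaxD of 15.9 after Dex+E2, 19.1 after Dex and 13.0 in untreated cells. As deposited 2 remained, chr12:16794819-16796404 and chr12:17141017-17142251, against 1.10% of all. None of the 16 sites of all 4 lists was at least 2-fold higher in both Dex+E2 over E2 and Dex over untreated, where 1.38% of all such sites were; neither Dex site could be counted, since the E2 list lacks both. E2 over untreated could be computed at 19 window sites, and 3 were at least 2-fold higher by medians, against 14.4% of 24486 sites. Beside the leading site and chr12:17149486-17150376 this was chr12:16853997-16854698 (2.11-fold), which as deposited was lower after E2, at 10.4 against 14.5 in untreated cells. As deposited 2 of 19 were at least 2-fold higher, the leading site and chr12:17149486-17150376, against 0.208% of all. At least 2-fold higher after Dex+E2 than in untreated cells were 6 of 28 window sites, against 10.7% of 32130 sites: the leading site, chr12:17149486-17150376, both Dex sites, chr12:16785317-16786444 and chr12:16854739-16855760. As deposited 4 of 28 met this limit, against 1.36% of all, and chr12:16785317-16786444 (1.51-fold) and chr12:16854739-16855760 (1.22-fold) did not.

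**Figure D3:**
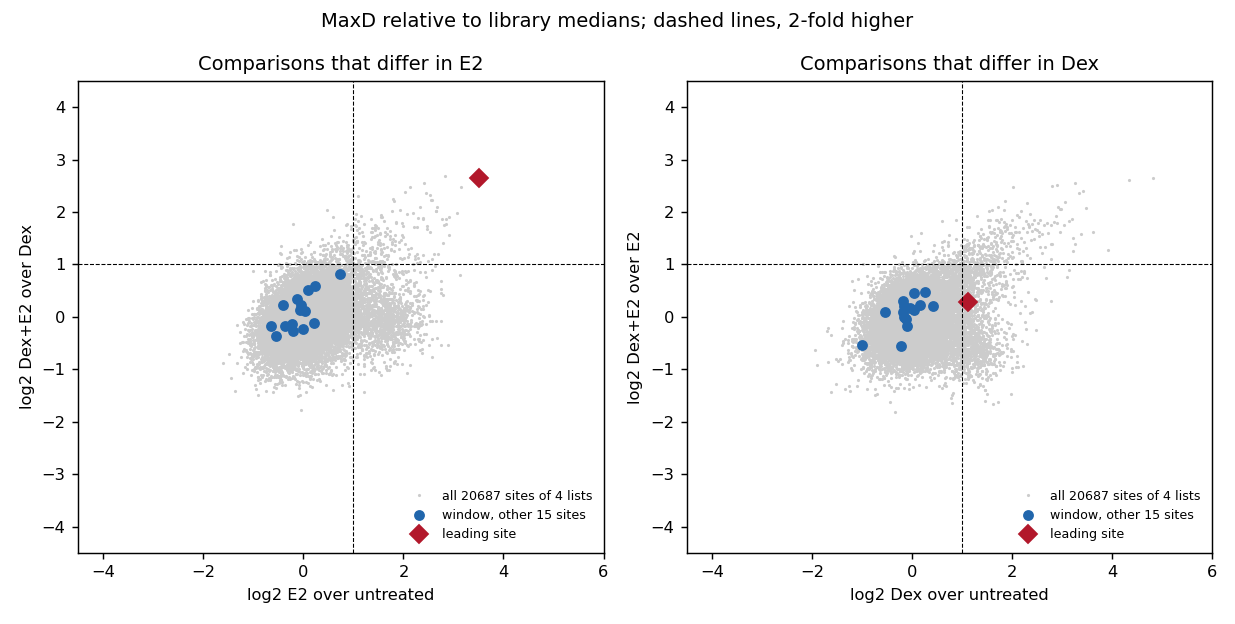
Log2 ratios of MaxD relative to library medians at the 20687 sites of all 4 lists (grey), the other 15 window sites (blue) and the leading site (red), for the comparisons that differ in E2 (left) and in Dex (right); dashed lines mark a 2-fold increase. The leading site lies at 3.50 and 2.65 in the E2 panel and at 1.12 and 0.27 in the Dex panel, while the other window sites stay within the grey cloud.

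Most dense sites of the window changed little relative to the medians. The densest, chr12:16857049-16858376, had a MaxD of 158 after Dex+E2, 91.0 after E2, 100.2 after Dex and 230 in untreated cells, with an AveD of 32.1, 17.8, 18.3 and 44.9. E2 over untreated was 0.23 (0.06 to 0.39) and Dex+E2 over Dex 0.59 (0.41 to 0.77) on the log2 scale. As deposited, each hormone library was below the untreated one. At chr12:17227001-17228216 MaxD was 66.7 after Dex+E2, 39.4 after E2, 71.8 after Dex and 150 in untreated cells. It was 33.3 after Dex+E2, 25.0 after E2, 38.4 after Dex and 84.9 in untreated cells at chr12:17190885-17191824. The site chr12:16859902-16861211 had 44.5 after Dex+E2, 27.4 after E2, 36.2 after Dex and 83.9 in untreated cells. At chr12:16876751-16878178 the values were 28.6 after Dex+E2, 18.8 after E2, 35.0 after Dex and 80.9 in untreated cells. As deposited, all 4 of these sites were densest without hormone and least dense after E2, but relative to the medians this order did not hold at each of them. At chr12:16859902-16861211, for example, MaxD was 2.88 times the library median after Dex+E2, 2.69 after E2, 2.47 after Dex and 2.79 in untreated cells. The counting interval of every log2 ratio by medians included 0 at this site. E2 over untreated was −0.54 (−0.89 to −0.21) at chr12:16876751-16878178 and −0.37 (−0.61 to −0.14) at chr12:17227001-17228216 by medians. Dex+E2 over untreated was −0.38 (−0.67 to −0.10) at chr12:17190885-17191824.

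At each of the other sites of all 4 lists, apart from the leading one, untreated cells were highest as deposited. Their MaxD after Dex+E2 lay between 10.2 and 44.2, and in untreated cells between 25.5 and 77.3 apart from chr12:17237295-17238422 at 19.1. The upper end was chr12:17039559-17041183, with 44.2 after Dex+E2, 23.8 after E2, 33.1 after Dex and 77.3 in untreated cells. The widest was chr12:17005612-17008429, with listed widths of 1814 bp after Dex+E2, 1679 bp after E2, 2443 bp after Dex and 2500 bp in untreated cells, at a MaxD of 35.8, 20.6, 39.9 and 61.0. In all, 15 of the 16 sites had a lower deposited MaxD in each hormone library than in untreated cells, against 90.1% of the 20687 sites, and the leading site was the exception. Leaving it out, the median log2 ratio of the other 15 by medians was −0.08 for E2 over untreated and 0.11 for Dex+E2 over Dex. It was −0.12 for Dex over untreated and 0.14 for Dex+E2 over E2. Over all 20687 sites these medians were 0.001, −0.02, −0.008 and −0.03.

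Of the 16 window sites of all 4 lists, 1 had the lowest ratio over untreated cells in every hormone library, by medians and as deposited. At chr12:16880607-16881449 MaxD was 10.2 (7.45 to 13.7) after Dex+E2, 9.80 (7.25 to 12.9) after E2 and 11.02 (8.04 to 14.8) after Dex, against 45.1 (38.7 to 52.3) in untreated cells. The 3 hormone libraries were alike within counting error. Dex over untreated gave a log2 ratio of −1.0 (−1.51 to −0.52), Dex+E2 over untreated −1.18 (−1.69 to −0.70) and E2 over untreated −0.64 (−1.13 to −0.18), which is short of 2-fold. As deposited these were −2.03, −2.14 and −2.20. By medians it was the 1 window site at least 2-fold lower after Dex, right at the limit, against 0.406% of sites, and the 1 after Dex+E2, against 1.09%. As deposited such a decrease was common: it was met by 7 of 28 window sites after Dex+E2, against 35.9% of all, by 15 of 19 after E2, against 74.7%, and by 11 of 29 after Dex, against 40.8%.

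The Dex+E2 list alone held 5 window sites (8.20%, against 11.5% of all sites), led by chr12:16876017-16876729 at 18.8 (15.0 to 23.3), which lay 22 bp from the dense site chr12:16876751-16878178. The other 4, at MaxD 7.71 to 10.7, were chr12:16705397-16705648, chr12:16722948-16723424, chr12:16760047-16760402 and chr12:16767038-16767565, all on the side of chr12:16770996-16772312. The Dex list alone held 5 (against 14.3% of all), led by chr12:16871248-16871798 at 11.02. The untreated list alone held 8 (against 26.0%), led by chr12:16897154-16897703 at 10.7, and the E2 list alone held 1 (against 6.97%), chr12:17225786-17226145 at 7.20.

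Untreated cells and Dex+E2 shared 6 sites that no other list held (against 3.56% of all). Their MaxD was 6.81 to 10.7 after Dex+E2 and 8.16 to 17.6 in untreated cells, with the highest at chr12:16902654-16903410 (10.2 and 17.6). A further 6 were in the Dex and untreated lists alone (against 4.11%), at 8.57 to 13.0 after Dex and 8.93 to 14.5 in untreated cells, with the densest at chr12:17183153-17184038 (13.0 and 14.5). Missing from the E2 list alone were 5 sites (against 5.83%), among them both Dex sites and chr12:16785317-16786444. The site chr12:16785317-16786444 had a MaxD of 15.4 after Dex+E2, 8.33 after Dex and 10.2 in untreated cells. Missing from the Dex+E2 list alone were 2 (against 0.806%), with chr12:16847649-16848417 at 8.0 after E2, 11.02 after Dex and 26.3 in untreated cells. The other, chr12:16853997-16854698, lay 41 bp from chr12:16854739-16855760, which is 1 of the 5 missing from the E2 list alone. Joining regions within 150 bp merges these neighbours, so their patterns depend on the joining distance. In the low range, the faintest regions listed in the window had a MaxD of 6.81 after Dex+E2, 7.0 after E2, 8.08 after Dex and 6.63 in untreated cells.

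The window's ends cut no dense site. Just inside its low end chr12:16532881-16533470 had a MaxD of 6.81 after Dex+E2 and 9.95 in untreated cells, and just outside chr12:16484209-16484911 had 8.62 after Dex+E2, 8.60 after E2, 9.55 after Dex and 19.6 in untreated cells. At the high end chr12:17248624-17249201 inside stood at 8.82 after Dex, and chr12:17265265-17265841 outside at 10.7 in untreated cells.

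Elsewhere in the genome, a few sites had a profile close to that of the leading site. Likeness was measured over the 4 libraries as the Euclidean distance between log2 MaxD relative to the library median, each centred on its own mean, where the median site of all 4 lists lay at a distance of 3.20. The nearest, at 0.40, was chr11:53128015-53128849, with a MaxD of 49.0 after Dex+E2, 20.6 after E2, 8.33 after Dex and 6.89 in untreated cells. Another site of chromosome 12, chr12:25408067-25409727, followed at 0.57 with 86.4 after Dex+E2, 45.2 after E2, 12.7 after Dex and 18.9 in untreated cells. The next were chr3:129763610-129764932 at 0.71, chr7:74606585-74607447 at 0.74 and chr11:76343008-76343833 also at 0.74. All 5 had their highest density after Dex+E2, the next after E2, and lower values in the Dex and untreated libraries. They were chosen for likeness to the leading site, so this shared order follows from the choice. Genes at these sites were not analysed here.

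**Figure D4:**
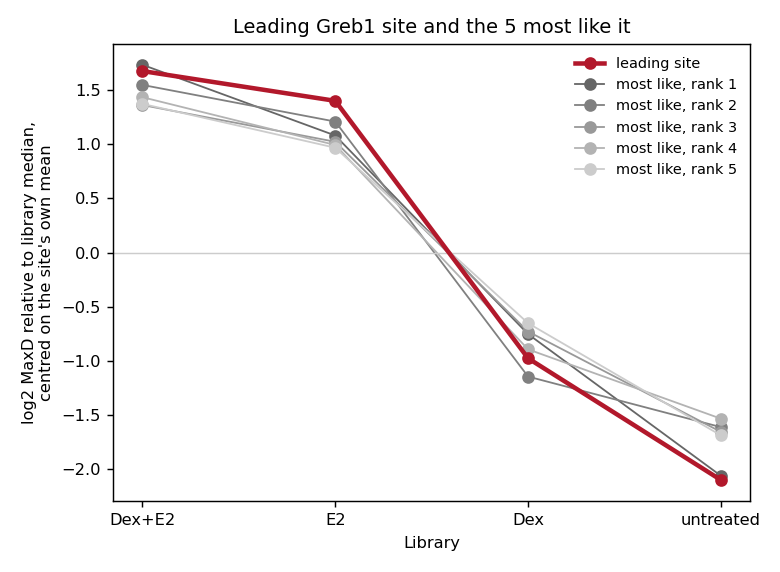
Log2 MaxD relative to the library median, centred on each site's own mean, in the 4 libraries (x axis) for the leading Greb1 site (red) and the 5 sites outside the window most like it (grey, rank 1 at a distance of 0.40 and rank 5 at 0.74). The leading site has the highest value of the 6 after E2 and the lowest in untreated cells.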

How the data were processed

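Each of the 4 conditions had 1 library and 1 deposited list of hypersensitive regions, called per library; groups follow the treatment in the labels. Per the submitters' processing notes the build is mm9 and CASAVA 1.8 was used; for the aligner, region caller and scaling total, the sources used here name nothing. The columns, per the file headers, are a maximum (MaxD) and average (AveD) tag density, a signal the authors scaled per library, a Z score and a p-value. The deposited Z score and p-value belong to single regions and were not compared. The value of 1 tag was 0.227 after Dex+E2, 0.200 after E2, 0.245 after Dex and 0.255 in untreated cells, and 100% of MaxD values were whole multiples within 0.02 tags. The labels do not describe the nuclease digestion.

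Regions of the lists that overlapped or touched were joined, and a site has in each library the highest MaxD and AveD of its regions there and their summed width, end minus start. MaxD was divided by the library median over sites of all 4 lists. A call needs a 2-fold change. No test of a treatment was made, since each condition had 1 library. Scripts were tested on simulated data. The window, sites and lists were chosen with earlier results of these data known. Named sites are all E2-higher sites, those of the Dex+E2 and E2 lists alone, the 5 densest and the densest of each presence pattern; the other sites named were chosen after their values were seen. Alternatives covered scaling, density measure, fold limit, joining, list length and window overlap. Promoters matched by symbol come from RefSeq (GRCm38.p6). Python 3.11.15, NumPy 2.4.6, pandas 2.3.3 and SciPy 1.17.1 were used.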

Additional observations from a re-analysis of the deposited data

How the results depend on the processing

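Scaling moved most. As deposited, without division by the medians, the log2 ratio at the leading site was 1.94 for E2 over untreated, 0.089 for Dex over untreated, 0.87 for Dex+E2 over E2 and 2.81 for Dex+E2 over untreated. The median over the 16 window sites of all 4 lists was then −1.63, −1.15, 0.75 and −0.86, against −0.06, −0.12, 0.15 and 0.10 by medians. With a 1.5-fold limit 2 sites were higher with E2 in both comparisons, the second being chr12:17237295-17238422. The other 53 of 62 alternative values stayed within counting error or within 1.5 times of a count: AveD for MaxD, medians over chromosome 12, joining within 150 bp, a 4-fold limit, lists of equal length and regions wholly inside the window. Summits of 26 to 900 tags limit the precision at faint sites most. No paired analysis was possible because each condition had 1 library.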
